A study of Homo sapiens with 12 samples.

Results

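Transcripts of the machinery that marks and removes hypoxia-inducible factors (HIFs) were followed in a renal carcinoma line and its VHL-expressing derivative, each with or without knockdown of BMAL1. The genes were taken by name from the deposited count table: VHL, its scaffold partners CUL2 and RBX1, the HIF prolyl hydroxylases EGLN1, EGLN2 and EGLN3, and the asparaginyl hydroxylase HIF1AN, 7 of 38021 genes listed. Of the 7, 6 had enough counts to be tested among 16838 genes, and EGLN2 did not.

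RNA was sequenced from 786O, a line from a clear cell renal carcinoma that lacks working VHL protein, and from WT8, which is 786O with wildtype VHL put back. Both lines carried a lentiviral PLKO.1 vector with either a scrambled shRNA (shControl) or an shRNA against BMAL1 (shBMAL1), and transduced cells were selected with puromycin, so both arms of each comparison carry a vector and its selection. The 4 groups, 786O shControl, 786O shBMAL1, WT8 shControl and WT8 shBMAL1, had 3 libraries each, named as biological replicates. The design asks what loss of BMAL1, a clock factor that is related to the HIF partner ARNT, does to transcripts in cells without and with VHL. WT8 is a separately derived line, and VHL cannot be told apart from any other difference between the lines. Whether WT8 is 1 clone and which promoter drives its VHL are not given in the sources used here. The study's methods also list an independent BMAL1 shRNA, and the labels do not say which was used. All cells were grown in the same serum-containing medium, and no treatment with low oxygen is given for these samples.

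In cells with oxygen, EGLN enzymes hydroxylate prolines of the HIF alpha subunits, using oxygen and 2-oxoglutarate. The hydroxylated alpha subunit is bound by the VHL protein, the substrate receptor of a ubiquitin ligase in which elongin B and elongin C join VHL to the scaffold CUL2, and RBX1 recruits the ubiquitin-conjugating enzyme. HIF1AN hydroxylates an asparagine of the alpha subunit, and this hydroxylation blocks coactivator binding. EGLN3 and EGLN1 are themselves well-known HIF target genes, and loss of VHL is the hallmark lesion of clear cell renal carcinoma.

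Libraries held 33182025 to 36477509 counts, of which mitochondrial genes took 3.42% to 5.69%. The knockdown was visible in each line. BMAL1, listed as ARNTL, fell by 1.62 on the log2 scale in 786O shBMAL1 and by 2.48 in WT8 shBMAL1, a difference of -0.86 between the lines (edgeR adjusted p = 0.000368). The 5 renal carcinoma markers fixed for the analysis were detected in each group, with a summed level of 5496 to 5926 CPM (counts scaled by library size) in 786O and 3414 to 4344 CPM in WT8. VIM was the largest, at a mean of 4481 CPM in 786O shControl and 1948 CPM in WT8 shControl. In the same order, PAX8 (313 and 1335 CPM), PAX2 (13.5 and 24.8 CPM) and KRT18 (254 and 479 CPM) were higher in WT8, and KRT8 (653 and 541 CPM) was lower. Leukocyte markers summed to at most 0.493 CPM, endothelial markers to at most 1.47 CPM and fibroblast markers to 2.65 to 12.5 CPM, with PTPRC, CD3E, LYZ, PECAM1 or CDH5 at 0 in every library of at least 1 group. In bulk RNA, fewer cells of a type and less RNA per cell cannot be told apart.

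Across the 4 groups the members followed no single pattern. EGLN3 rose in 786O shBMAL1 and fell in WT8 shBMAL1, and it was far lower in WT8 than in 786O. VHL was high in WT8 and fell there with shBMAL1, while RBX1 was lower in WT8 shControl and rose there with shBMAL1. CUL2, EGLN1 and HIF1AN differed by at most 1.28-fold in the comparisons of 2 groups. The plot of transcript level by library shows these patterns.

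**Figure D1:**
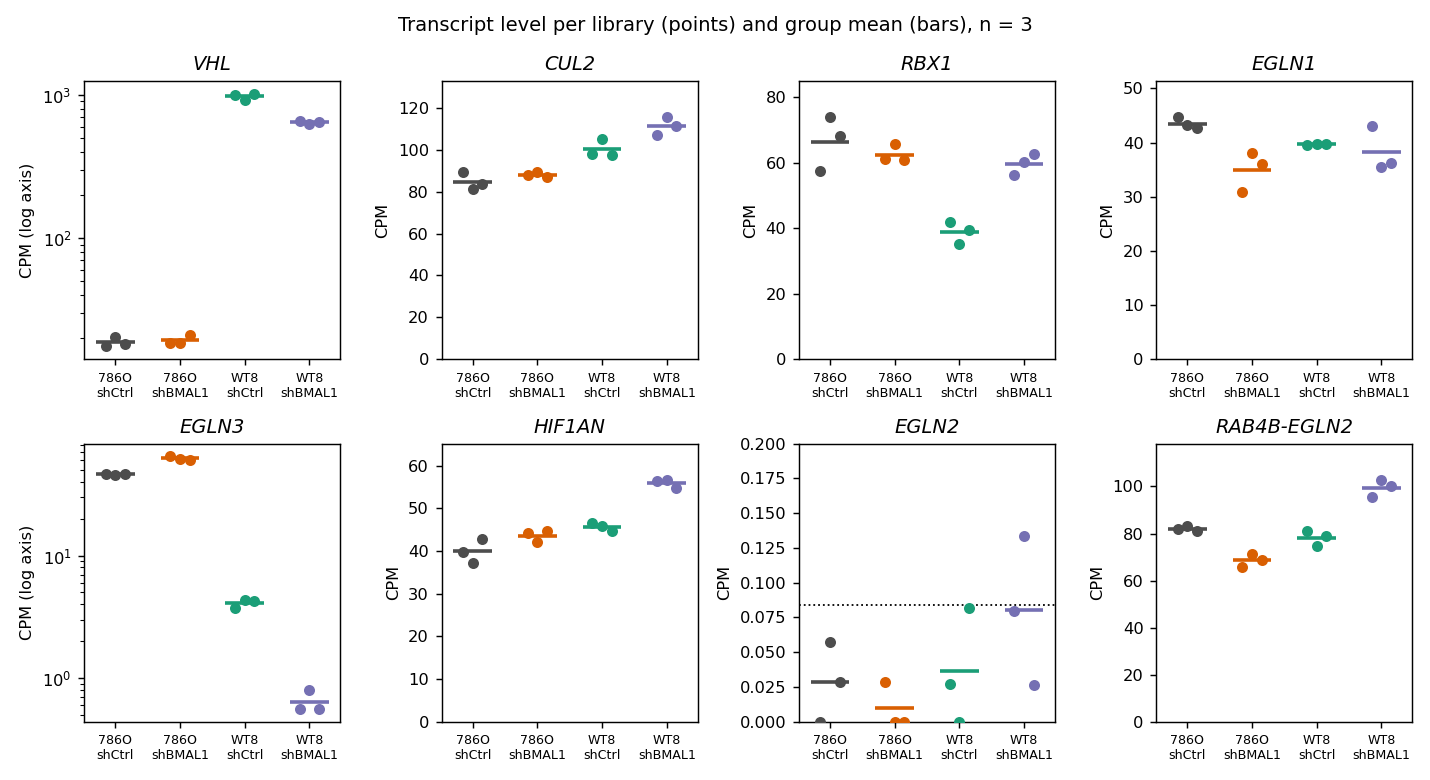
Transcript level in CPM of the 7 members and of the readthrough row RAB4B-EGLN2, with 1 point per library and a bar at the mean of each group (n = 3, shCtrl is shControl). VHL and EGLN3 are on log axes, the other axes start at 0, and the dotted line for EGLN2 marks the mean CPM that 3 counts stand for. EGLN3 is at 45.9 to 64.6 CPM in 786O and at 0.558 to 4.35 CPM in WT8.

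Read against all genes, the members were called about as often as the background. In 786O shBMAL1 against shControl, 3 of the 6 tested members were called, 2 higher and 1 lower, where 48.9% of all tested genes were called, 24.5% higher and 24.4% lower. The groups did not overlap for 2 members, against 50.9% of all genes. In WT8 5 of 6 were called, 3 higher and 2 lower, against 69.8% of all genes, 32.9% higher and 36.9% lower, and 5 did not overlap, against 67.6%. Between the shControl lines 6 of 6 were called, 3 higher and 3 lower in WT8, against 79.5%, 39.3% higher and 40.1% lower, and 6 did not overlap, against 77.5%.

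The interaction, the response in WT8 minus that in 786O, was called for 4 of 6, 2 positive and 2 negative, against 56% of all genes, 27.4% and 28.6%. Between the shBMAL1 lines, a comparison added after the data were seen, 4 of 6 were called, 3 higher and 1 lower in WT8, against 73%, 35.9% higher and 37.1% lower, and 4 did not overlap, against 71%. A test for changes over 1.5-fold in edgeR called EGLN3 in WT8 shBMAL1 and in the interaction, VHL, RBX1 and EGLN3 between the shControl lines, and VHL and EGLN3 between the shBMAL1 lines. In 786O shBMAL1 it called 0 members, with 0 at an unadjusted p under 0.05. The comparisons share libraries and are not independent.

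**Figure D2:**
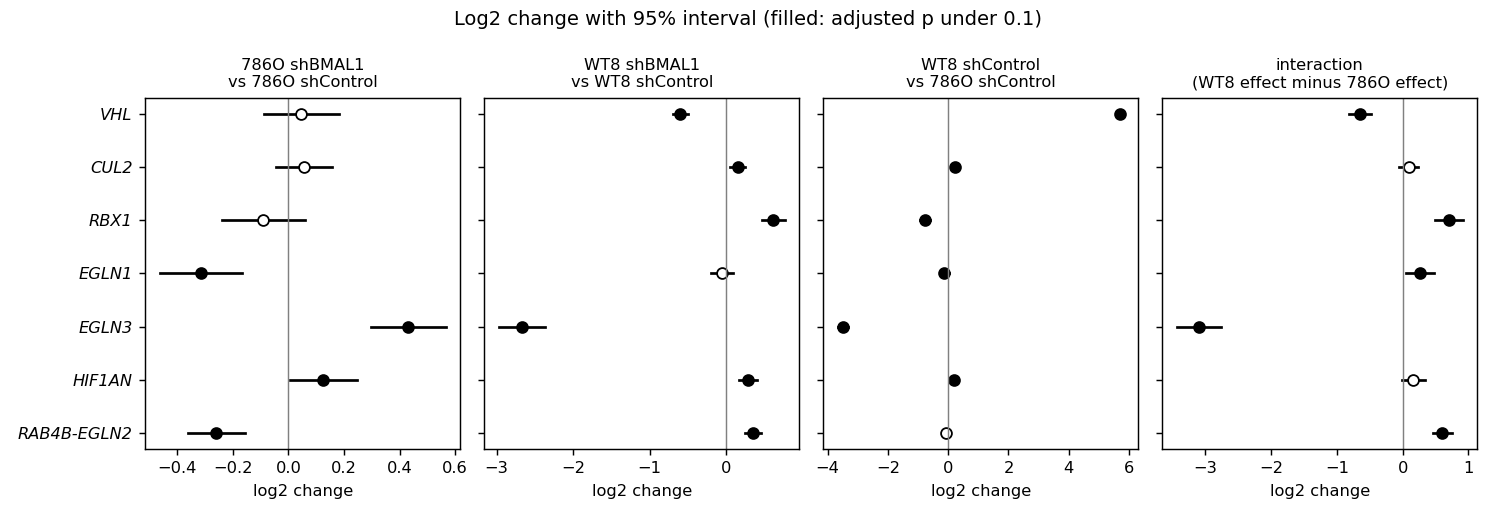
Log2 change with its 95% interval for the 6 tested members and RAB4B-EGLN2 in 4 comparisons, where a filled point has an adjusted p under 0.1 and each panel has its own scale. EGLN3 lies at 0.43 in 786O and at -2.67 in WT8, and VHL at 0.05 and -0.60.

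EGLN3, the prolyl hydroxylase most often used as a HIF reporter (GRCh37 chromosome 14, 34393433 to 34931980, minus strand), differed most among the hydroxylases. Its level was 46.8, 45.9 and 46.0 CPM in 786O shControl, 64.6, 61.7 and 60.7 CPM in 786O shBMAL1, 3.72, 4.35 and 4.24 CPM in WT8 shControl, and 0.558, 0.802 and 0.562 CPM in WT8 shBMAL1. The groups did not overlap, and the order was 786O shBMAL1, 786O shControl, WT8 shControl and WT8 shBMAL1, with each neighbouring pair called different. In 786O, shBMAL1 raised EGLN3 1.35-fold (log2 0.43 ± 0.07 SE, adjusted p = 1.94e-06). In WT8, shBMAL1 lowered it 6.37-fold (log2 -2.67 ± 0.15 SE, adjusted p = 1.13e-17), and the difference between the lines was itself called (interaction log2 -3.10, 95% interval -3.44 to -2.77, adjusted p = 4.77e-18). The level in WT8 shBMAL1 rested on 21, 30 and 21 counts. Leaving out any 1 library gave log2 changes of -2.86 to -2.58 in WT8 and of 0.40 to 0.45 in 786O.

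Between the lines under shControl, EGLN3 was 11.3-fold lower in WT8 (log2 -3.49 ± 0.09 SE, adjusted p = 6.46e-29). Under shBMAL1 it was 96.8-fold lower in WT8 (log2 -6.60 ± 0.11 SE, adjusted p = 1.06e-33). Of the 16838 genes tested, 653 fell more than EGLN3 between the shControl lines, and 400 fell more in WT8 with shBMAL1. The gene model of EGLN3 overlaps that of SPTSSA on the same strand, which had 353 to 884 counts in its own row. The antisense gene EGLN3-AS1 had 0 to 2 counts.

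EGLN1, the main HIF prolyl hydroxylase in most cells (GRCh37 chromosome 1, 231499497 to 231558033, minus strand), differed little. Its level was 44.7, 43.2 and 42.6 CPM in 786O shControl and 30.8, 38.1 and 36.0 CPM in 786O shBMAL1, which did not overlap. In WT8 it was 39.5, 39.8 and 39.8 CPM with shControl and 43.1, 35.5 and 36.3 CPM with shBMAL1, which overlapped. EGLN1 fell by 19.6% with shBMAL1 in 786O (log2 -0.31 ± 0.07 SE, adjusted p = 5.77e-04), opposite in direction to EGLN3 in the same libraries. In WT8 the change was log2 -0.05 (95% interval -0.20 to 0.09, adjusted p = 0.54).

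The difference of the EGLN1 response between the lines was log2 0.26 (adjusted p = 0.0328). That call was lost with upper-quartile scaling (0.20, adjusted p = 0.108) and when single libraries were left out: the value was 0.18 without 786O shBMAL1 replicate 1 (adjusted p = 0.138) and 0.18 without WT8 shBMAL1 replicate 1 (adjusted p = 0.143). Between the lines under shControl the difference was log2 -0.13 ± 0.07 SE (adjusted p = 0.0957), and that call was lost without 786O shControl replicate 1 or 2 and without any 1 of the WT8 shControl libraries, with values from -0.14 to -0.12. With upper-quartile scaling it was -0.02 (adjusted p = 0.817). In the order of EGLN1 levels, from 786O shControl through WT8 shControl and WT8 shBMAL1 to 786O shBMAL1, the middle pair was not called (adjusted p = 0.54). The last pair, under shBMAL1, differed by log2 0.13 (adjusted p = 0.115), which passed the threshold with upper-quartile scaling (0.18, adjusted p = 0.0292), with mitochondrial genes left out (0.16, adjusted p = 0.0452), and without 786O shBMAL1 replicate 2 (0.20, adjusted p = 0.0281), WT8 shBMAL1 replicate 2 (0.19, adjusted p = 0.041) or WT8 shBMAL1 replicate 3 (0.17, adjusted p = 0.0631).

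EGLN2, the third prolyl hydroxylase (GRCh37 chromosome 19, 41304901 to 41314339, plus strand), could not be measured from its own row. It had 0, 2 and 1 counts in 786O shControl, 1, 0 and 0 in 786O shBMAL1, 1, 0 and 3 in WT8 shControl, and 3, 5 and 1 in WT8 shBMAL1. Apart from the library with 5, these are at or under 3 counts, the floor used here, so no fold is given. The readthrough gene RAB4B-EGLN2, which runs through RAB4B and EGLN2 on the same strand, held 2290 to 3843 counts per library, while the RAB4B row was at 0 in the 12 libraries. The reads of RAB4B, EGLN2 and their readthrough transcript cannot be told apart in that row.

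RAB4B-EGLN2 had 81.7, 83.2 and 81.1 CPM in 786O shControl and 65.8, 71.2 and 68.6 CPM in 786O shBMAL1, a fall of log2 -0.26 ± 0.05 SE (adjusted p = 6.95e-05). In WT8 it had 81.0, 74.5 and 79.1 CPM with shControl and 95.4, 102.8 and 100.4 CPM with shBMAL1, a rise of log2 0.35 ± 0.05 SE (adjusted p = 1.69e-07). The groups overlapped in neither line, and the opposite responses differed by log2 0.61 (adjusted p = 4.95e-09). Between the shControl lines the difference was log2 -0.07 (adjusted p = 0.215). When the rows RAB4B, EGLN2, RAB4B-EGLN2 and MIA-RAB4B were summed, a sum chosen after the data were seen, that difference became -0.13 (adjusted p = 0.0195). MIA-RAB4B, with 102 to 309 counts per library, was itself lower in WT8 shControl than in 786O shControl (log2 -1.05, adjusted p = 1.55e-06).

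HIF1AN, the asparaginyl hydroxylase (GRCh37 chromosome 10, 102288829 to 102319755, plus strand), had 39.7, 37.3 and 42.9 CPM in 786O shControl, 44.3, 42.0 and 44.6 CPM in 786O shBMAL1, 46.6, 45.9 and 44.8 CPM in WT8 shControl, and 56.3, 56.7 and 54.8 CPM in WT8 shBMAL1. It was highest in WT8 shBMAL1, whose libraries lay apart from those of the other groups. The rise with shBMAL1 in WT8 was log2 0.29 ± 0.06 SE (adjusted p = 5.64e-05). In 786O the groups overlapped, and a log2 change of 0.13 ± 0.06 SE just passed the threshold (adjusted p = 0.0896). Among the fits with 1 library left out, that call held only without 786O shControl replicate 3 or 786O shBMAL1 replicate 2. It was lost without any 1 of the other 10 libraries, with log2 changes from 0.07 to 0.12. With all libraries it held with RLE scaling (adjusted p = 0.0664) and with mitochondrial genes left out (adjusted p = 0.0628). It was lost with upper-quartile scaling (adjusted p = 0.132), without the filter (adjusted p = 0.169) and in a fit of only the 2 groups (adjusted p = 0.105). The difference between the lines in this response was log2 0.16 (95% interval -0.01 to 0.33, adjusted p = 0.107), and it passed the threshold without 786O shControl replicate 2 (0.22, adjusted p = 0.0375), 786O shBMAL1 replicate 3 (0.19, adjusted p = 0.0918) or WT8 shBMAL1 replicate 3 (0.19, adjusted p = 0.0851). This difference also passed with all libraries when mitochondrial genes were left out (0.18, adjusted p = 0.0712). WT8 shControl was higher than 786O shControl by log2 0.20 ± 0.06 SE (adjusted p = 0.00392). The gene overlaps NDUFB8 on the opposite strand, which had 4070 to 5900 counts, and whether strand was used in counting is not given.

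The make-up of the prolyl hydroxylase transcripts differed between the groups. Levels were compared per length, as CPM per kilobase of the union of annotated exons. EGLN3 made up 43.4%, 43.6% and 44.1% of the summed EGLN level in 786O shControl and 60.5%, 54.2% and 55.2% in 786O shBMAL1. In WT8 its share was 6.44%, 7.40% and 7.22% with shControl and 0.937%, 1.62% and 1.12% with shBMAL1. The groups did not overlap. With 1 canonical transcript per gene as the length, a choice added after the data were seen, the mean shares were 63.0%, 74.1%, 14.2% and 2.64% in the same order. The size of the shares thus depended on the length. With EGLN2 near 0, each EGLN3 share follows the ratio of EGLN3 to EGLN1, so no choice of length could change the order of the groups. Both sets of shares use the EGLN2 row, which could not be measured, and so leave EGLN2 near 0. With RAB4B-EGLN2 in its place, also added later, the mean shares of EGLN3 were 15.3%, 22.8%, 1.68% and 0.22%. The RAB4B-EGLN2 row, which may also hold reads of RAB4B, then took 64.9%, 59.7%, 76.1% and 81.7%.

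**Figure D3:**
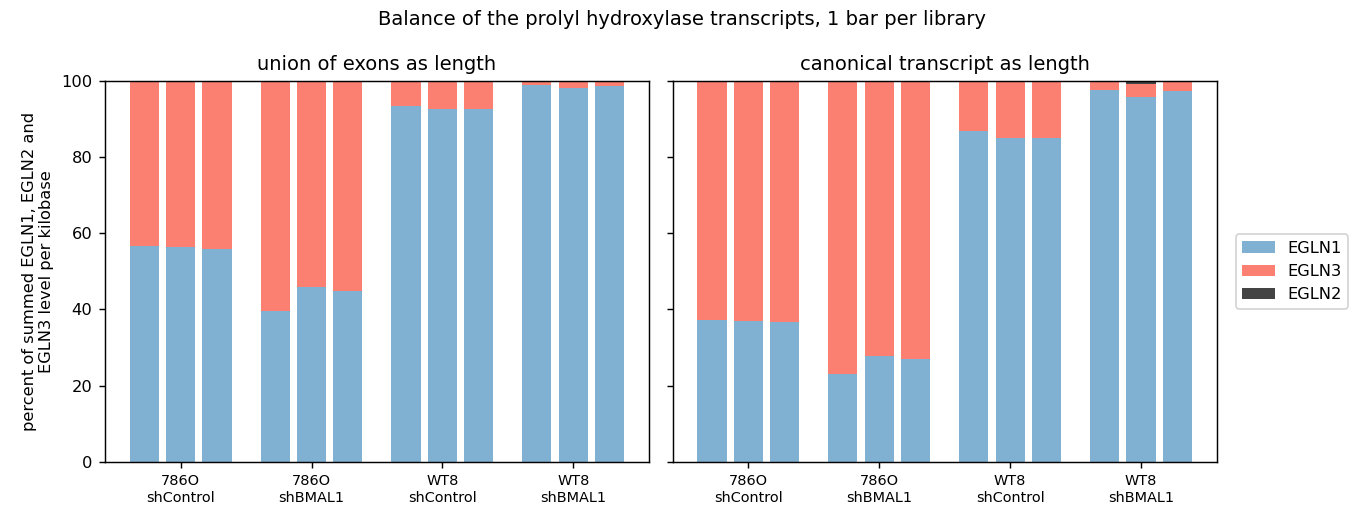
Share of EGLN1, EGLN3 and EGLN2 in their summed level per kilobase, with 1 stacked bar per library, in percent on an axis from 0 to 100, using the union of exons (left) or 1 canonical transcript per gene (right) as the length. With the union of exons, EGLN3 takes between 43.4% and 60.5% of a bar in 786O and between 0.937% and 7.40% in WT8. The EGLN2 row could not be measured. With RAB4B-EGLN2 in its place, mean EGLN3 shares are 15.3% and 22.8% in 786O, and 1.68% and 0.22% in WT8 (shControl, then shBMAL1).

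Promoter sequence is shown for EGLN1 and EGLN3, whose responses in 786O went opposite ways, for RAB4B-EGLN2 and RBX1, whose responses differed between the lines, and for EGLN2, which the readthrough row covers, with the letters that HIF and clock dimers are known to prefer in capitals. The windows are the 250 bases before the transcription start in RefSeq (GRCh38.p14), written 5′ to 3′ along the gene. Entries were found for 6 of the 7 members, without VHL. The motifs searched on both strands were ACGTG and GCGTG, cores of the hypoxia response element, and CACGTG, the E-box, which holds ACGTG on each strand. EGLN1 (chr1:231422288-231422537, minus strand) has 1 ACGTG 13 to 9 bases before its start. EGLN3 (chr14:33951075-33951324, minus strand) has none of the motifs in this window. RAB4B-EGLN2 (chr19:40777969-40778218, plus strand) has, on the opposite strand, an ACGTG 161 to 157 bases and a GCGTG 94 to 90 bases before its start. EGLN2 at its first start (chr19:40798941-40799190, plus strand) has a CACGTG 49 to 44 bases before the start. RBX1 (chr22:40951128-40951377, plus strand) has a CACGTG 117 to 112 bases, a GCGTG 124 to 120 bases and, on the opposite strand, an ACGTG 240 to 236 bases before the start.
EGLN1: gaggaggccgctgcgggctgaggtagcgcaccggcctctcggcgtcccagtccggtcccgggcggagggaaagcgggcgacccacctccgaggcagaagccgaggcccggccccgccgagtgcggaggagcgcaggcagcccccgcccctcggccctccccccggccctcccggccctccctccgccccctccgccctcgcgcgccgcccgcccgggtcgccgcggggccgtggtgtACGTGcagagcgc
EGLN3: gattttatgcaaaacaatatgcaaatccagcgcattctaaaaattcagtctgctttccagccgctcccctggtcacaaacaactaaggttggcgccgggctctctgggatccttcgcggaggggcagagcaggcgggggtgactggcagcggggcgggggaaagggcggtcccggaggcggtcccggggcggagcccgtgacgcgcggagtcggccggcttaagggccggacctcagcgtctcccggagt
RAB4B-EGLN2: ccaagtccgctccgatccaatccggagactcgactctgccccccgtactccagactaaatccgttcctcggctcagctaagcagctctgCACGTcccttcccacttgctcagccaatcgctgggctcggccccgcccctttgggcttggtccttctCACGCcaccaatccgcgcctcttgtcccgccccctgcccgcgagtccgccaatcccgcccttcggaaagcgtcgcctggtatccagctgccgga
EGLN2: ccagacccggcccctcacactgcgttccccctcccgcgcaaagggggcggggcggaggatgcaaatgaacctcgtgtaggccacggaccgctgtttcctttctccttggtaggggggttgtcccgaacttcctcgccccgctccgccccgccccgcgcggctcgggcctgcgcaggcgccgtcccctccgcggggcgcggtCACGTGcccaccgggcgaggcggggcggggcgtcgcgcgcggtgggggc
RBX1: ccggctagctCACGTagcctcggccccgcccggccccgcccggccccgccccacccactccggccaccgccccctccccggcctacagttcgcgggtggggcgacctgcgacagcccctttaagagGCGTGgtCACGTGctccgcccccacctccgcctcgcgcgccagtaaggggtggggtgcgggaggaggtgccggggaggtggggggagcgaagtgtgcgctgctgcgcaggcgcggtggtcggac

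Among the 35116 RefSeq windows of this length, 18.5% hold ACGTG, 32.2% GCGTG and 6.34% CACGTG, so a match to ACGTG or GCGTG is common and a match to CACGTG is less so. HIF1AN, the 3 starts of CUL2 and the other start of EGLN2 hold none of them. These letters describe the windows and do not show binding, and a window without them says nothing about the factor.

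VHL, the substrate receptor (GRCh37 chromosome 3, 10183462 to 10195351, plus strand), checked the labels of the lines. It had 17.6, 20.6 and 18.2 CPM in 786O shControl, 18.4, 18.5 and 21.3 CPM in 786O shBMAL1, 1006.2, 916.0 and 1020.0 CPM in WT8 shControl, and 661.2, 631.2 and 648.2 CPM in WT8 shBMAL1. The lines did not overlap, and VHL was 52.3-fold higher in WT8 shControl than in 786O shControl (log2 5.71 ± 0.06 SE, adjusted p = 8.45e-38), a rise that 229 tested genes exceeded. The transcript was present in 786O, with 602 to 740 counts per library. With shBMAL1, VHL fell by 34.0% in WT8 (log2 -0.60 ± 0.05 SE, adjusted p = 6.78e-13), and the WT8 groups did not overlap. In 786O the change was log2 0.05 (95% interval -0.09 to 0.18, adjusted p = 0.604) and the groups overlapped. The difference between the lines was log2 -0.65 ± 0.08 SE (adjusted p = 3.43e-08). Under shBMAL1, VHL was still 33.4-fold higher in WT8. Reads of the introduced VHL and of the resident gene fall in the same row and cannot be told apart.

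The genes beside VHL on chromosome 3 differed by less between the shControl lines. Of the 3 nearest tested protein-coding genes on each side, 4 were called higher in WT8: EMC3 by log2 0.52 (adjusted p = 1.30e-08), TATDN2 by 0.34 (adjusted p = 3.88e-07), SEC13 by 0.26 (adjusted p = 5.76e-06) and BRK1 by 0.17 (adjusted p = 0.00845). FANCD2 was lower (log2 -2.38, adjusted p = 1.32e-27), and IRAK2 was not called (-0.10, adjusted p = 0.367). FANCD2, a Fanconi anaemia repair gene, thus moved opposite to VHL, and with shBMAL1 in WT8 it rose by log2 2.41 ± 0.06 SE while VHL fell. In that comparison IRAK2 changed by log2 -1.07, SEC13 by -0.51 and BRK1 by -0.40, whereas EMC3 (0.00) and TATDN2 (-0.10, adjusted p = 0.105) were not called.

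**Figure D4:**
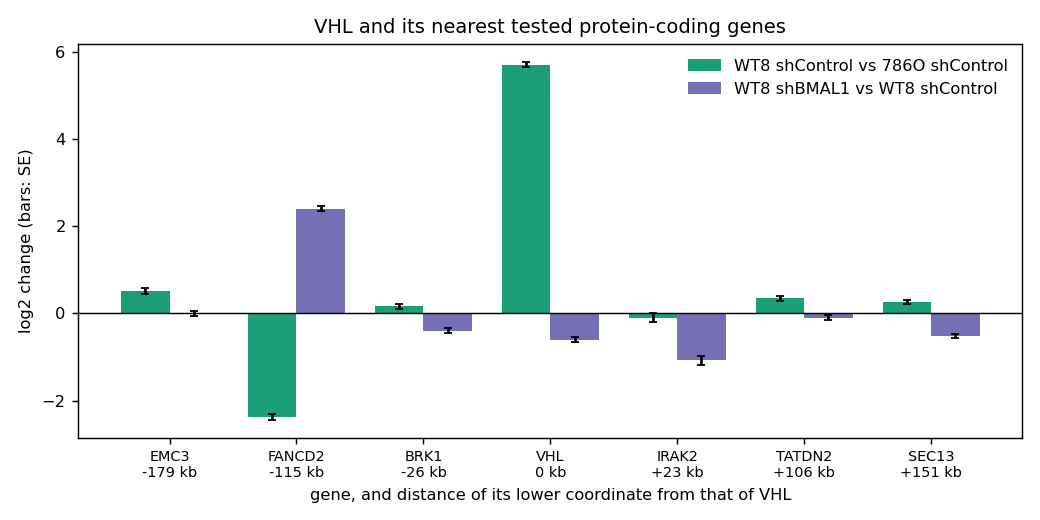
Log2 change of VHL and of the 3 nearest tested protein-coding genes on each side, for WT8 shControl against 786O shControl and for WT8 shBMAL1 against WT8 shControl, with the standard error as error bars and the distance from VHL in kilobases under each name. VHL stands at 5.71 between the lines, and its neighbours lie between -2.38 and 0.52.

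CUL2, the cullin scaffold (GRCh37 chromosome 10, 35297432 to 35415934, minus strand), differed between the lines by at most 1.26-fold. It had 89.3, 81.4 and 84.0 CPM in 786O shControl, 88.3, 89.7 and 87.0 CPM in 786O shBMAL1, 98.3, 105.4 and 97.9 CPM in WT8 shControl, and 107.5, 115.7 and 111.5 CPM in WT8 shBMAL1. The WT8 libraries lay above those of 786O. WT8 shControl was higher than 786O shControl by log2 0.24 ± 0.05 SE (adjusted p = 3.65e-05). With shBMAL1 the change was log2 0.06 in 786O (95% interval -0.04 to 0.16, adjusted p = 0.378), and in WT8 CUL2 rose by log2 0.15 ± 0.05 SE (adjusted p = 0.00734), a call lost with upper-quartile scaling (0.07, adjusted p = 0.175). The interaction was log2 0.09 (95% interval -0.05 to 0.23, adjusted p = 0.279). CREM overlaps CUL2 on the opposite strand, with 953 to 1191 counts.

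RBX1, the RING subunit (GRCh37 chromosome 22, 41347351 to 41369313, plus strand), was lowest in WT8 shControl. Its level was 57.4, 73.8 and 68.0 CPM in 786O shControl, 61.0, 65.6 and 60.6 CPM in 786O shBMAL1, 42.0, 35.2 and 39.5 CPM in WT8 shControl, and 56.1, 60.3 and 62.6 CPM in WT8 shBMAL1. WT8 shControl lay below the other groups, which overlapped one another. RBX1 was lower in WT8 shControl than in 786O shControl (a change of -41.4%, log2 -0.77 ± 0.07 SE, adjusted p = 4.65e-10) and rose with shBMAL1 in WT8 by 53.3% (log2 0.62 ± 0.07 SE, adjusted p = 4.91e-08). In 786O the change was log2 -0.09 (95% interval -0.24 to 0.06, adjusted p = 0.352), but without 786O shControl replicate 1, the lowest of its group, it was -0.19 (adjusted p = 0.0262). The interaction was log2 0.71 ± 0.10 SE (adjusted p = 2.36e-06), with 0.63 to 0.81 when any 1 library was left out. Under shBMAL1 the lines differed by log2 -0.07 (95% interval -0.22 to 0.09, adjusted p = 0.44).

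Per kilobase of annotated exons, the level of VHL was 0.570, 0.732 and 0.627 times that of CUL2 in 786O shControl and 0.604, 0.598 and 0.708 times in 786O shBMAL1. In WT8 the ratio was 29.7, 25.2 and 30.2 with shControl and 17.8, 15.8 and 16.8 with shBMAL1. The receptor transcript thus stood below its scaffold in 786O and above it in WT8. With the canonical transcript as length the mean ratios were 0.21, 0.208, 9.27 and 5.50, in the same order. Which part of the transcript the introduced VHL carries is not given in the sources used here, so its level per length is uncertain.

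The partners of the ligase and the wider pathway were followed in 7 lists of 108 other genes, of which 106 were tested (CAND2 and BBOX1 had too few counts). In 786O shBMAL1, 36 rose and 22 fell, so that 54.7% were called beside 48.9% of all genes. In WT8 shBMAL1, 44 rose and 44 fell (83.0% beside 69.8%), and between the shControl lines 50 were higher and 33 lower in WT8 (78.3% beside 79.5%). The median log2 change of the 106 was 0.04, -0.06 and 0.11, beside 0.00, -0.04 and 0.00 over all genes tested.

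Of 7 ligase partners, the elongins and ubiquitin-conjugating enzymes, 5 rose and 0 fell in 786O shBMAL1 (71.4% called beside 48.9% of all genes), and 4 rose and 1 fell in WT8 shBMAL1 (71.4% beside 69.8%). Elongin C, listed as TCEB1, was at 58.7 ± 1.21, 68.0 ± 3.41, 53.5 ± 2.97 and 77.6 ± 4.85 CPM (SD, n = 3) in 786O shControl, 786O shBMAL1, WT8 shControl and WT8 shBMAL1. It rose by log2 0.21 in 786O (adjusted p = 0.00239) and by 0.54 in WT8 (adjusted p = 2.20e-10), with an interaction of 0.32 (adjusted p = 9.06e-04). Elongin B, listed as TCEB2, changed by log2 0.19 in 786O (adjusted p = 0.0721), a call lost without any 1 of 786O shControl replicates 1 to 3, 786O shBMAL1 replicates 1 and 2 or WT8 shControl replicate 2 (0.11 to 0.21). In WT8 its value was 0.03 (adjusted p = 0.794).

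Genes of neddylation and the COP9 signalosome, which switch cullin ligases on and off, numbered 21 tested. In WT8 shBMAL1 15 rose and 3 fell (median log2 0.22), beside 32.9% and 36.9% of all genes. In 786O shBMAL1 7 rose and 1 fell (median 0.07), and 38.1% were called beside 48.9% of all genes. In WT8 shBMAL1, DCUN1D4 rose by log2 0.70, NAE1, a subunit of the NEDD8-activating enzyme, by 0.66, COPS3 by 0.55 and COPS8 by 0.49. DCUN1D2 fell by 0.64 on the log2 scale, while DCUN1D1 (0.35) and DCUN1D5 (0.17) rose. DCUN1D3 was not called (log2 -0.17, adjusted p = 0.286). Between the shControl lines 7 were higher and 7 lower (66.7% called beside 79.5%), among them DCUN1D2 (log2 1.22) and NAE1 (-0.41).

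Of the 8 other cullins and RING subunit, 2 rose and 6 fell in WT8 shBMAL1 (median log2 -0.40), beside 32.9% and 36.9% of all genes. Under shControl 6 were higher and 1 lower in WT8 than in 786O (median 0.34), beside 39.3% and 40.1%, and in 786O shBMAL1 2 rose and 3 fell (62.5% called beside 48.9%). RNF7, the RING subunit paralogous to RBX1, was higher by log2 0.85 in WT8 shControl and fell by 0.41 on the log2 scale with shBMAL1 in WT8, each opposite in direction to RBX1. CUL9 fell in both lines, by 0.68 in 786O and by 1.07 in WT8 on the log2 scale.

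Other CUL2 substrate receptors, which compete with VHL for the same scaffold, numbered 11 tested. In WT8 shBMAL1 4 rose and 7 fell, where 69.8% of all genes were called. In 786O shBMAL1 3 rose and 3 fell (54.5% called beside 48.9%), and between the shControl lines 6 were higher and 5 lower, where 79.5% of all genes were called. With shBMAL1 in WT8, LRR1 went from 9.37 ± 0.942 to 30.8 ± 0.714 CPM (log2 1.71 ± 0.08 SE, adjusted p = 1.20e-19). It was at 25.4 ± 1.34 and 26.6 ± 1.45 CPM in the 786O groups, with an interaction of 1.65 (adjusted p = 6.40e-15). Between the shControl lines LRR1 was lower in WT8 (log2 -1.44, adjusted p = 1.41e-17). KLHDC3 rose in both lines, by log2 0.71 in 786O and 1.45 in WT8. PRAME was lower in WT8 shControl (log2 -1.57, adjusted p = 3.37e-17) and fell further with shBMAL1 by 1.01 on the log2 scale.

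Of 15 regulators of VHL or the hydroxylases, 6 rose and 2 fell in 786O shBMAL1 (53.3% called beside 48.9% of all genes), and 4 rose and 8 fell in WT8 shBMAL1 (80% beside 69.8%). Between the shControl lines 6 were higher and 4 lower (66.7% beside 79.5%). With shBMAL1 in 786O and in WT8, VBP1, a prefoldin subunit that binds VHL, rose by log2 0.22 and 0.79. PTGES3, the p23 cochaperone, rose by 0.39 and 0.71 in the same order. USP20 (log2 -0.75) and OS9 (-0.46) were among the 8 that fell in WT8 shBMAL1. WTIP, an Ajuba-family LIM protein, was lower in WT8 shControl (log2 -3.87 ± 0.31 SE, adjusted p = 1.13e-13), at 0.205 ± 0.0782 CPM against 3.03 ± 0.609 CPM in 786O.

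Among 31 other oxygen and 2-oxoglutarate dioxygenases, 11 rose and 8 fell in 786O shBMAL1 (61.3% called beside 48.9% of all genes), 10 rose and 15 fell in WT8 shBMAL1 (80.6% beside 69.8%), and 16 were higher and 10 lower between the shControl lines (83.9% beside 79.5%). PLOD2, a collagen lysyl hydroxylase, was at 1034 ± 34.5 and 1293 ± 28.0 CPM in 786O shControl and shBMAL1 but at 1017 ± 44.9 and 318.1 ± 7.49 CPM in WT8, with log2 changes of 0.32 and -1.68 and a called interaction (adjusted p = 2.47e-25), the same signs as EGLN3. KDM6B, a histone demethylase, was higher in WT8 shControl by log2 1.97 and rose by 0.82 in 786O shBMAL1. In WT8 shBMAL1 its log2 change was -0.26 (adjusted p = 0.00138). Of 13 enzymes of 2-oxoglutarate, succinate and fumarate, 2 rose and 5 fell in 786O shBMAL1 (53.8% called beside 48.9% of all genes), 5 rose and 4 fell in WT8 shBMAL1 (69.2% beside 69.8%), and 7 were higher and 4 lower between the shControl lines (84.6% beside 79.5%). OGDH, of the 2-oxoglutarate dehydrogenase complex, fell from 136.4 ± 6.73 to 43.2 ± 1.16 CPM in 786O and from 189.0 ± 4.33 to 38.9 ± 2.50 CPM in WT8. IDH1, a cytosolic source of 2-oxoglutarate, fell by 1.13 on the log2 scale in 786O and by 1.55 in WT8. FH, fumarase, had an interaction of log2 0.77 (adjusted p = 3.40e-12).

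**Figure D5:**
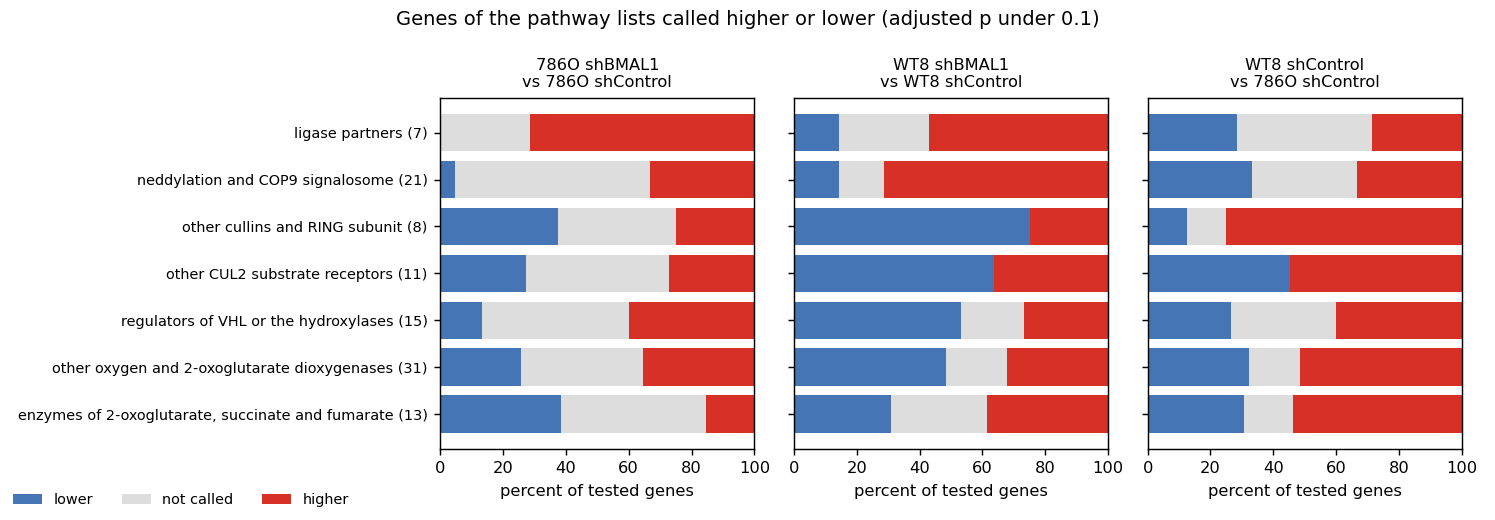
Percent of the tested genes of each list (number tested in brackets) called lower, not called or called higher at an adjusted p under 0.1, in 3 comparisons. Of the neddylation and COP9 signalosome genes 15 of 21 are higher in WT8 shBMAL1, and of the other cullins and RING subunit 6 of 8 are lower there.

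The genes with the most similar profile to each member were ranked by Pearson's r of log2 CPM over the 12 libraries, among 12948 genes with a mean of at least 50 counts. The 12 libraries form 4 groups and 2 lines, so these values describe the groups more than single cultures. EGLN3 was followed most closely by COL6A2, TM4SF1 and BST2 (r of 0.999 to 0.997), and 537 genes exceeded 0.95. VHL was followed by ETHE1, COL4A4 and MINK1 (r of 0.999 to 0.997), with 593 genes over 0.95. RBX1 was nearest to MAGOHB (0.972), CUL2 to TMEM261 (0.984) and HIF1AN to LINC01444 (0.990). EGLN1 had 0 genes over 0.95, and its nearest was ARNT (0.914), at 40.2, 29.1, 36.1 and 33.5 CPM on average in the 4 groups, with AMT (0.895) and ELMO2 (0.847) next.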

How the data were processed

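The values are estimated counts per gene, linear and unscaled, as deposited. Per the labels, the libraries were stranded mRNA libraries made by BGI. Per the methods of the study, the authors had them sequenced in pairs on a BGI machine, used SeqMan NGen 17 for alignment to GRCh37, and took counts from ArrayStar 17. The submitters' processing notes name hg38, STAR and DESeq2 instead, and which pipeline made this table is not settled here. The annotation, the use of strand and the treatment of reads with several alignments are not given in the sources used here. A value of 0.028 stood in for 0 (47.0% of values) and was set to 0. Of the other values 5.67% were not whole, so values were rounded. The 38074 lines were summed to 38021 names. Values of 2 counts (14754) outnumbered values of 1 count (11117), so mates may have been counted separately, and 3 counts, the floor used, may stand for fewer fragments. Floors and counting intervals cover counting error only.

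The 12 libraries held 33182025 to 36477509 counts. filterByExpr kept 16838 of 26938 genes with a count. A model with 1 mean per group was fitted with edgeR 4.0.16 in R 4.3.3 (TMM scaling, factors from 0.948 to 1.04, robust quasi-likelihood F test, common biological coefficient of variation 5.70%). Benjamini-Hochberg adjustment covered the whole set of tested genes, and an adjusted p under 0.1, the rate the study used, made a call. Adjusted p-values are from this test unless another tool is named. The interaction is the shBMAL1 effect of WT8 less that of 786O. Intervals at 95% were taken as the log2 change ± a t quantile times the standard error (SE). The test was tried on simulated counts beforehand. P-values measure the spread between cultures labelled as biological replicates, and the sources do not describe how these were separated. Same-numbered replicates of different groups had correlations of deviations from -0.0364 to 0.0383, so the numbers were not taken as pairs.

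Names were matched to GENCODE 44 on GRCh37 (22506 the same, 1180 by an older name, 14335 unmatched) for positions and lengths. Alternatives were DESeq2 1.42.0, other scalings, filters and thresholds, and leaving out each library. The members, the 7 pathway lists and the comparisons were chosen with earlier results of these data known. Named pathway genes are elongins B and C and, for each comparison, the 2 top rises and the 2 top falls among called genes with a mean of at least 50 counts and groups that do not overlap. Genes overlapping a member, the neighbours of VHL and the 3 genes most like each member were also named by rule, while other genes named from the lists were chosen after their values were seen.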

Additional observations from a re-analysis of the deposited data

Results flagged for a closer look

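Responses to shBMAL1 that differed between the lines, by the interaction in edgeR, were those of EGLN3 (log2 -3.10, adjusted p = 4.77e-18), RBX1 (0.71, adjusted p = 2.36e-06), VHL (-0.65, adjusted p = 3.43e-08) and EGLN1 (0.26, adjusted p = 0.0328, but 0.108 with upper-quartile scaling) among the members, where 56% of all tested genes had a called interaction. RAB4B-EGLN2 (0.61, adjusted p = 4.95e-09) and the target of the shRNA, ARNTL (-0.86, adjusted p = 3.68e-04), differed as well. ARNTL ended at 3.94 CPM in 786O shBMAL1 and at 1.66 CPM in WT8 shBMAL1, so the depth of the knockdown moved with these differences, and its part in them was not tested. The groups have 3 libraries each, too few for a test of single outlying libraries.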

How the results depend on the processing

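Of the values of the single members under the alternatives, 569 kept their side of the threshold, 45 lost a call and 10 gained one. Over the members and the other named genes, signs changed 24 times between values that were called in neither fit. Asking for a change significantly over 1.5-fold left 990, 4314, 6992, 3133 and 5024 genes in 786O shBMAL1, WT8 shBMAL1, the shControl lines, the interaction and the shBMAL1 lines, with 0, 1, 3, 1 and 2 members and 6, 20, 29, 10 and 25 other pathway genes, since the test is then against a larger change. Upper-quartile scaling moved the median of all genes between the shControl lines by 0.113 and turned PLOD2 there from -0.02 to 0.089; the cause was not tested. The mean share of EGLN3 in 786O shControl, 786O shBMAL1, WT8 shControl and WT8 shBMAL1 was 61.8%, 73.1%, 13.6% and 2.52% with the longest transcript as length, 63.0%, 74.1%, 14.2% and 2.64% with the canonical one, and 15.3%, 22.8%, 1.68% and 0.22% with RAB4B-EGLN2 in place of EGLN2. The ratio of VHL to CUL2 was 0.23, 0.228, 10.1 and 6.02 with the longest and 0.21, 0.208, 9.27 and 5.50 with the canonical transcript. These follow from the lengths and rows used. With replicate number as a block, 8054, 11624, 13268, 9247 and 12162 genes were called, and 2, 5, 5, 4 and 4 members: HIF1AN in 786O (adjusted p = 0.101) and EGLN1 between the shControl lines (adjusted p = 0.114) lost their calls. EGLN3 in WT8 shBMAL1 (21 to 30 counts) and EGLN2 (0 to 5) are limited by depth.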
